A study of Rattus norvegicus with 13 samples.

Results

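Somatostatin and neuropeptide Y are peptide transmitters, made largely by GABA neurons in the forebrain and hypothalamus, and they act on receptors of the G protein-coupled kind. The group described here holds the precursor gene of each peptide (Sst, Npy), 3 somatostatin receptor genes (Sstr1, Sstr2, Sstr3) and 3 neuropeptide Y receptor genes (Npy1r, Npy2r, Npy5r), 8 genes in all. Its members were taken by gene symbol from a table of 14855 genes, in which 7 of the 8 symbols have a row. No row of the table analysed here carries the symbol Npy, and whether a row described as pro-neuropeptide Y-like stands for that gene is not settled by the sources used here.

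The study compared the medial preoptic area (MPOA), a hypothalamic region with a part in sexual, parental and social behaviour, between adolescent male SAS Sprague-Dawley rats given an shRNA against Oprm1, the mu opioid receptor gene, and rats given a scrambled shRNA. Both hairpins were driven by the U6 promoter in AAV5 vectors that also carried GFP. They were injected into both sides of the MPOA on postnatal day 21, at 0.5 uL per side, so the control rats also went through surgery and carried virus and GFP. The area was dissected on both sides from 200 micron sections, and total RNA was sequenced. The labels leave 5 Oprm1 shRNA samples and 7 scrambled shRNA samples in the comparison, and they mark 1 further Oprm1 shRNA sample as left out. The sample titles carry the letters EE in the Oprm1 shRNA group and CC in the scrambled shRNA group. The labels do not explain these letters, and a factor that they might mark cannot be told apart from the hairpin.

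Somatostatin inhibits growth hormone release from the pituitary and dampens the firing of its target neurons. Neuropeptide Y is one of the strongest stimulants of feeding, and it also restrains transmitter release at many synapses. The receptors of both peptides couple to inhibitory Gi/o proteins, which lower cyclic AMP and open potassium channels, as the mu opioid receptor does. The somatostatin gene is a textbook target of cyclic AMP, which acts through the transcription factor CREB at a short palindrome, the cyclic AMP response element.

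That element was searched for in the promoter windows because it links cyclic AMP, which the targeted receptor lowers, to a member gene. RefSeq windows of 300 bases on GRCr8, from 250 bases before each gene's annotated start to 50 after it, matched 8 of 8 members. The palindrome TGACGTCA, which reads the same on both strands, was found in 2 of the 8, Sst and Sstr2. Sst is the known target that led to the search, so its match was foreseen and only Sstr2 adds to it. The count is therefore no measure of enrichment in the group. Of all 33469 windows, 1.83% held it, and of the 12061 windows whose symbol is in the table, 2.92%. Both sequences are shown 5′ to 3′ with the palindrome in capitals. The Sst window is chr11:90461296-90461595 on the plus strand, and its palindrome begins 3 bases into the annotated gene. The Sstr2 window is chr10:99163103-99163402 on the plus strand, and its palindrome begins 73 bases before the annotated start. Both positions are relative to the annotated starts, which were not checked against where transcription begins. A match of letters is a description and not a measured binding site.
Sst: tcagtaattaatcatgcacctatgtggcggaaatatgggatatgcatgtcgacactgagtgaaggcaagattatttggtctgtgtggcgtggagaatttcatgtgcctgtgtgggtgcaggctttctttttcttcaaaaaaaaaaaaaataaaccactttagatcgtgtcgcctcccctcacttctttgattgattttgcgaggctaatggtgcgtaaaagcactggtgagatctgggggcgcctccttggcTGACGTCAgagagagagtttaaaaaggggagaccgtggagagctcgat
Sstr2: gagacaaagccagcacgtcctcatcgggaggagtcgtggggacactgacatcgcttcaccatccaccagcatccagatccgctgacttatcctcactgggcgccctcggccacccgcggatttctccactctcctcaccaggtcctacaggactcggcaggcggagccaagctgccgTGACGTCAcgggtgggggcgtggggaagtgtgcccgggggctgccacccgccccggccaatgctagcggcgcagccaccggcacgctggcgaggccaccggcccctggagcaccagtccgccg

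In the authors' deposited edgeR table, 0 of the 7 measured members passed an adjusted p of 0.05, against a background of 0.0202% of all genes (3 of 14855). At an unadjusted p under 0.05 the count was also 0 of 7, against a background of 4.39% of all genes per the authors' deposited table. The members' unadjusted p-values ran between 0.340 for Sstr1 and 0.984 for Npy5r per the authors' deposited table, and every member had an adjusted p of 0.9997. Of the 7, 3 had a positive log2 fold change and 4 a negative one, where positive means higher with Oprm1 shRNA. Their median log2 fold change was −0.06, beside −0.02 over all 14855 genes per the authors' deposited table. The absolute log2 fold change of each of the 7 was smaller than its own standard error, a value implied by the authors' likelihood ratio statistic. The p-values that miss the threshold do not show that levels were equal, and the intervals below give the changes that these data leave room for.

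The table gives 1 abundance per gene, the average CPM (read counts scaled to library size) over the libraries of both groups, and 1 fold change between the groups. Single-sample values were not analysed here, so the overlap of the groups and the part of any 1 library cannot be given. CPM is not divided by transcript length, so it serves here as a measure of how many reads support a fold change and not as a level to be compared between genes. In bulk tissue, fewer cells of a type and less RNA per cell cannot be told apart.

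**Figure D1:**
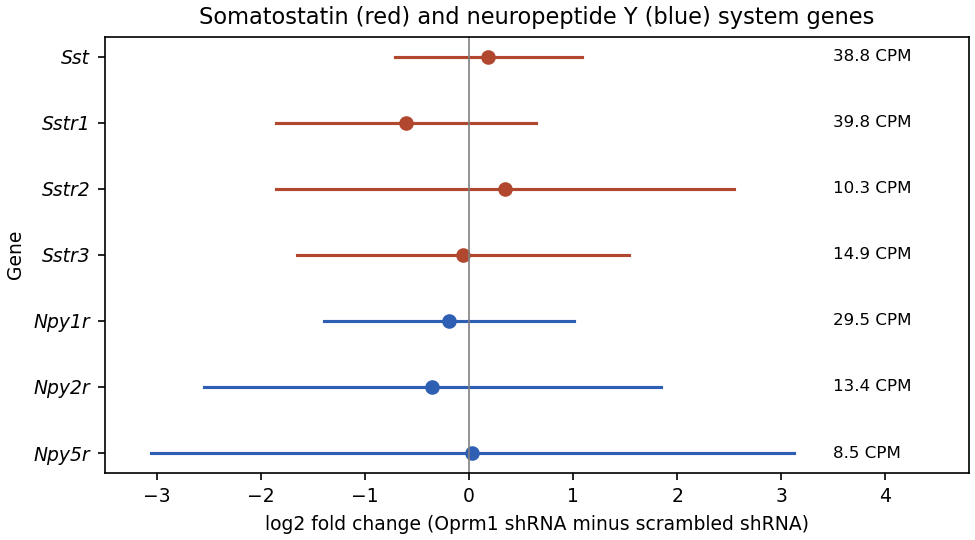
Log2 fold change (x axis, Oprm1 shRNA minus scrambled shRNA) of the 7 measured members (y axis) per the authors' deposited table, with points for the fitted values, lines for approximate 95% intervals, and the average CPM at the right. All 7 intervals cross 0, with the narrowest for Sst at 38.8 CPM and the widest for Npy5r at 8.47 CPM.

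Sst (ENSRNOG00000001837), the precursor of somatostatin-14 and somatostatin-28, averaged 38.8 CPM and showed a log2 fold change of 0.18 with an implied standard error of 0.46 per the authors' deposited table. This corresponds to a 1.14-fold level (approximate 95% interval 0.609 to 2.12; the authors' unadjusted p = 0.689). Of the 7 members, Sst had the narrowest interval. A change of more than about 1.87-fold upward would have cleared the interval at this error. This limit and those below are for a single gene without adjustment. Passing the adjusted threshold would take a larger change.

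Among the somatostatin receptors, Sstr1 (ENSRNOG00000048145) stood farthest from no change. It averaged 39.8 CPM and showed a log2 fold change of −0.61 with an implied standard error of 0.64 per the authors' deposited table. Its fold was 0.656 with an interval from 0.276 to 1.56 (the authors' unadjusted p = 0.340). Its standard error was 1.48 times the median of the 3.37% of genes nearest in abundance, and 9.58% of those genes had a larger one. At the median error of those genes a fold beyond 1.80 would clear the interval, against 2.38 at the error of Sstr1 itself. The source of this extra spread was not tested.

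Sstr2 (ENSRNOG00000002793), the main target of octreotide-like drugs, stood at a log2 fold change of 0.34 with an implied standard error of 1.12 at 10.3 CPM per the authors' deposited table. Its fold of 1.27 has an interval from 0.276 to 5.82 (the authors' unadjusted p = 0.761). In the RefSeq gene table on GRCr8, Sstr2 is the 1 member of the 8 whose span overlaps another gene, Slc39a11, a zinc transporter gene annotated on the opposite strand. The labels do not say whether strand was kept in counting, so reads from the overlap cannot be assigned with certainty. Slc39a11, named because of this overlap, averaged 11.5 CPM and had a log2 fold change of −0.09 per the authors' deposited table.

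Sstr3 (ENSRNOG00000007332), a receptor placed on the primary cilium of neurons, stood at a log2 fold change of −0.06 with an implied standard error of 0.81 at 14.9 CPM per the authors' deposited table. Its fold of 0.961 has an interval from 0.319 to 2.90 (the authors' unadjusted p = 0.944). The fitted value lies close to no change, while the interval holds folds near 3 in each direction.

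Of the neuropeptide Y receptors, Npy1r (ENSRNOG00000014149), the postsynaptic receptor that takes part in the feeding response, had the most reads. It averaged 29.5 CPM, with a log2 fold change of −0.19 and an implied standard error of 0.61 per the authors' deposited table. Its fold of 0.875 has an interval from 0.382 to 2.01 (the authors' unadjusted p = 0.753). Npy2r (ENSRNOG00000049213), the presynaptic autoreceptor that restrains release of the peptide, averaged 13.4 CPM and showed a log2 fold change of −0.35 with an implied standard error of 1.12 per the authors' deposited table. The fold of Npy2r was 0.783 with an interval from 0.171 to 3.59 (the authors' unadjusted p = 0.753).

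Npy5r (ENSRNOG00000014172), which like Npy1r takes part in feeding, averaged 8.47 CPM and showed a log2 fold change of 0.03 with an implied standard error of 1.58 per the authors' deposited table. Its fold of 1.02 has an interval from 0.120 to 8.70 (the authors' unadjusted p = 0.984), the widest of the 7. Npy1r and Npy5r are direct neighbours on chromosome 16 in the RefSeq table on GRCr8, on opposite strands with their starts next to each other, and their annotated spans do not overlap. Their fitted log2 fold changes of −0.19 and 0.03 per the authors' deposited table differ by less than either standard error. A test of that difference needs values per sample and was not run.

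Since Npy has no row under its own symbol, a row that the table describes as pro-neuropeptide Y-like was read beside it, a choice made after its values were seen. This gene, LOC100912228 (ENSRNOG00000046449), averaged 6.54 CPM with a log2 fold change of 0.56 and an implied standard error of 1.52 per the authors' deposited table. Its fold of 1.47 has an interval from 0.186 to 11.7 (the authors' unadjusted p = 0.714). The reference table does not list this symbol. The row may be that of Npy itself, which the tables used here do not settle, and it is therefore not counted as a member.

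The targeted gene gives the scale of what could be seen at such abundance. Oprm1 averaged 7.32 CPM, between LOC100912228 and Npy5r, and its log2 fold change was −0.58 with an implied standard error of 1.65 per the authors' deposited table (unadjusted p = 0.725). Its fold of 0.670 has an interval from 0.0715 to 6.27, so a fall of Oprm1 transcripts was not detected. At this error one beyond about 9.37-fold would have cleared the unadjusted interval, and smaller ones would not. The gene therefore gives no firm check of the group labels.

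**Figure D2:**
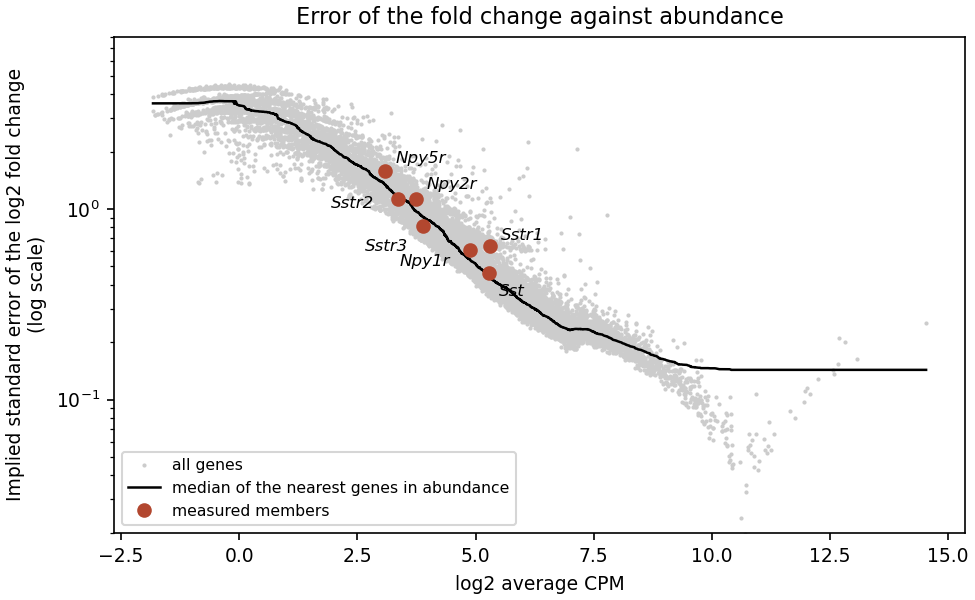
Implied standard error of the log2 fold change (y axis, log scale) against log2 average CPM (x axis) for all 14855 genes in grey, the median of the 3.37% of genes nearest in abundance as a black line, and the 7 measured members in red. Of the members, 5 lie above the line and 2 below it, and Sstr1 lies farthest above, at 1.48 times the median.

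With the exception of Sstr1, the members' errors were larger the fewer reads they had. Between log2 CPM 4 and 6, where Sst, Sstr1 and Npy1r lie, the median implied standard error was 0.53 over 4907 genes per the authors' deposited table. Between log2 CPM 2 and 4, where Sstr2, Sstr3, Npy2r and Npy5r lie, it was 1.29 over 3541 genes. In the lower of these bands 1.02% of genes had an unadjusted p under 0.05, and in the upper one 2.30%, per the authors' deposited table. Relative to the 3.37% of genes nearest in abundance, the members' standard errors were between 0.898 times the median for Sstr3 and 1.48 times for Sstr1. Among these neighbours in abundance, the share with a larger absolute log2 fold change was 14.8% for Sstr1, between 63.9% and 70.1% for Sst, Sstr2, Npy1r and Npy2r, 92.2% for Sstr3 and 97.8% for Npy5r.

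The other ligands and receptors of the families, with neuropeptides B and W, were a list of 10 genes, of which 5 are in the table. The cortistatin gene Cort and the genes Pyy, Ppy, Npy6r and Npw are not in the table analysed here. Of the 5 measured, 0 passed the adjusted threshold, 1 had a positive log2 fold change and 4 a negative one, with a median of −1.48 per the authors' deposited table. All 5 averaged under 4 CPM, which is log2 CPM 2. Over the 2776 genes below log2 CPM 2 the median log2 fold change was −0.22 and the median absolute one 1.37. By the authors' edgeR test 12.2% of those genes had an unadjusted p under 0.05. The count and median of the 5 include Npy4r and Npb, whose fitted values are described below.

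Sstr4, a somatostatin receptor, averaged 3.73 CPM and showed a log2 fold change of −1.48 with an implied standard error of 1.79 per the authors' deposited table. Sstr5, a receptor known from pituitary and pancreas, averaged 1.22 CPM and had −0.54 with an implied standard error of 3.24 per the authors' deposited table. Npbwr1, a receptor of neuropeptides B and W, had 0.87 at 0.650 CPM per the authors' deposited table. The implied standard error of Npbwr1 was 3.66. The intervals are very wide, with folds from 0.0314 to 4.09 for Sstr4, 0.00845 to 56.0 for Sstr5 and 0.0126 to 265 for Npbwr1.

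Npy4r, the receptor that prefers pancreatic polypeptide, was fitted at a log2 value of −7.87 with 0.956 CPM per the authors' deposited table (unadjusted p = 0.0234, adjusted p = 0.9997). Npb, the neuropeptide B precursor, was fitted at −6.71 with 0.485 CPM per the authors' deposited table (unadjusted p = 0.0583). Both lie on the lower edge of the plot of fold change against abundance, where the fitted value runs along a line with abundance. Such values are those that edgeR fits to genes with almost no reads in 1 group, and they depend on the prior count, so no fold is given for either gene.

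**Figure D3:**
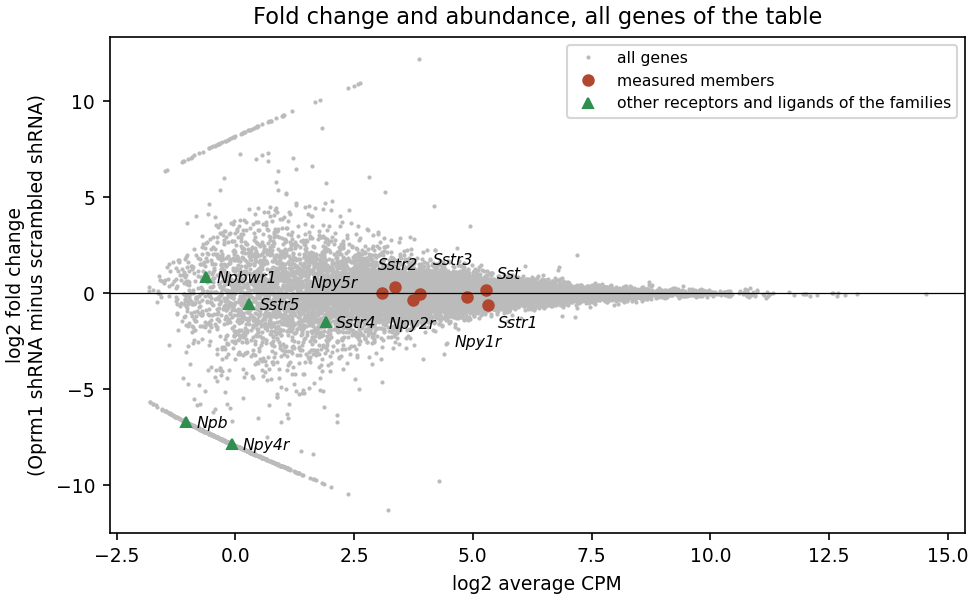
Log2 fold change (y axis, Oprm1 shRNA minus scrambled shRNA) against log2 average CPM (x axis) for all 14855 genes in grey, the 7 measured members as red circles and 5 related family genes as green triangles. The members lie inside the grey cloud between −0.61 and 0.34, and Npy4r and Npb lie on its lower edge at −7.87 and −6.71.

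The genes that make and store the peptides mostly had more reads and smaller errors than the members. Those that degrade them were mixed in this, between 0.703 and 74.0 CPM. Of 11 genes of precursor cutting, trimming and amidation, 10 are in the table and 0 passed the adjusted threshold, with 5 positive, 5 negative and a median log2 fold change of −0.03 per the authors' deposited table. The members of smallest p were Ctsl, a protease that also cuts peptide precursors, at −0.38 with an implied standard error of 0.23, and Cpe, the carboxypeptidase that trims cut precursors, at 0.07 with an implied standard error of 0.063 per the authors' deposited table. Of 11 granins and dense-core vesicle genes, all measured, 0 passed, with 3 positive, 8 negative and a median of −0.04 per the authors' deposited table. Cadps2, which primes dense-core vesicles for release, had 0.35, and Ptprn2, a vesicle membrane protein, had −0.14 there.

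Of 10 peptidases that shorten or degrade peptides, 9 are in the table and 0 passed the adjusted threshold, with 5 positive, 4 negative and a median of 0.03 per the authors' deposited table. Nln, the neurolysin gene, stood at −0.86 with an implied standard error of 0.39 at 36.3 CPM per the authors' deposited table (unadjusted p = 0.0256, adjusted p = 0.9997). Ide, the insulin-degrading enzyme, had 0.28 per the authors' deposited table. Dpp4, which clips the first residues of neuropeptide Y, averaged 0.703 CPM and had 1.73 with an implied standard error of 2.81 per the authors' deposited table.

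Markers of the forebrain GABA neurons that hold somatostatin or neuropeptide Y were measured for 12 of 12 genes, and 0 passed the adjusted threshold, with 5 positive, 7 negative and a median of −0.05 per the authors' deposited table. The GABA-synthesizing enzymes Gad1 and Gad2 had 0.17 and −0.07 with implied standard errors of 0.12 and 0.068 per the authors' deposited table. These errors are far smaller than the 0.46 of Sst. The list holds Nos1, Chodl and Tacr1, which in rodent cortex mark the cells that make both peptides, and it holds Lhx6, also a preoptic marker here. Nos1, Chodl and Tacr1 had −0.18, −0.58 and −0.88 with implied standard errors of 0.27, 1.15 and 1.33 per the authors' deposited table. The 5 positive genes of the list go the other way.

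The labelled region was checked against its markers. All 12 preoptic and anterior hypothalamic markers are in the table, among them Calcr at 360 CPM, Nts at 81.5 CPM, Gal at 64.1 CPM and Esr1 at 41.8 CPM, while Hmx3 at 1.03 CPM and Otp at 2.76 CPM are scarce per the authors' deposited table. Of the 12, 0 passed the adjusted threshold and 9 had a positive log2 fold change (75%, against 48.4% of all genes). Their median was 0.23 per the authors' deposited table. The abundant markers named above, Calcr, Nts, Gal and Esr1, had 0.03, −0.03, 0.14 and 0.08. Otp at 3.09 and Pgr, the progesterone receptor gene, at −0.99 had the smallest p of the list there. Their implied standard errors were 2.46 and 0.81.

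The labels place the sections between bregma −0.24 and −0.72 mm. Tissue of other regions, if carried over, can add these peptides and receptors, and the regions listed here need not border the dissected area. Of 9 arcuate markers 6 are in the table, with Agrp, which shares its neurons with Npy, among those that are not, and Pomc at 0.693 CPM. Of the measured arcuate markers, Tac3 had the most reads, at 40.0 CPM. The measured arcuate markers had 4 positive and 2 negative values with a median of 0.49 per the authors' deposited table. Ghrh at 4.48 and Tac3 at 0.46 had the smallest p there, with implied standard errors of 3.20 and 0.44. Ghrh averaged 2.75 CPM. All 10 striatal markers are in the table, with the most reads for Penk at 202 CPM. Drd1 at 4.62 CPM and Adora2a at 4.99 CPM are scarce. Of the 10, 5 were positive and 5 negative with a median of 0.04 per the authors' deposited table. Tac1, a tachykinin precursor gene, stood at 0.41. Of 8 cortical and hippocampal markers 4 are in the table, with the transporter gene Slc17a7 at 0.785 CPM, 2 positive and 2 negative. Tbr1 at 2.45 and Cux2 at −0.40 had the smallest p per the authors' deposited table, with implied standard errors of 2.25 and 0.65. Tbr1 averaged 3.10 CPM. All 7 thalamic markers are in the table, with 2 positive, 5 negative and a median of −0.25 per the authors' deposited table, with the smallest p for Slc17a6 at −0.27 and Calb2 at −0.25. In all of these lists 0 genes passed the adjusted threshold, and their part in the members' values was not tested. Whether the listed genes, such as Penk, Slc17a6 and Calb2, are also expressed in the MPOA itself was not checked. Their reads therefore do not show tissue of another region.

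Of 8 pan-neuronal markers, 3 were positive and 5 negative with a median of −0.12 per the authors' deposited table, with the smallest p for Map2 at −0.15 and Syt1 at −0.18. Map2, a microtubule-associated protein of dendrites, had an interval from −0.25 to −0.04 on the log2 scale per the authors' deposited table (unadjusted p = 0.00635, adjusted p = 0.9997). Its implied standard error was 0.378 times the median of the genes nearest in abundance, and its part in the members' values was not tested. Of 12 glial and vessel markers 11 are in the table, with 4 positive, 7 negative and a median of −0.08 per the authors' deposited table, with the smallest p for Aqp4 at −0.14 and Slc1a3 at −0.17. In both lists 0 genes passed the adjusted threshold.

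**Figure D4:**
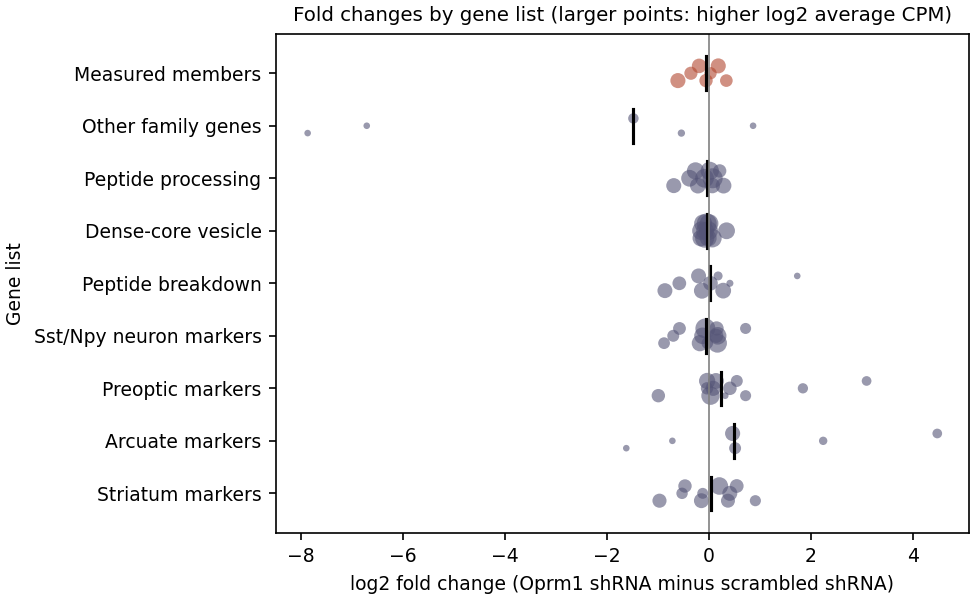
Log2 fold change (x axis, Oprm1 shRNA minus scrambled shRNA) of each measured gene in 9 lists (y axis), with larger points for higher log2 average CPM and a black bar at the list's median. The 7 members lie between −0.61 and 0.34 around a median of −0.06, and the widest values belong to small points such as Npy4r and Ghrh.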

How the data were processed

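RNA of the MPOA was sequenced in 13 labelled samples, of which the labels leave 5 Oprm1 shRNA and 7 scrambled shRNA. Per the submitters' processing notes, the tools were edgeR 3.28.0, RSEM, STAR 2.5.3a and bcl2fastq 2.20, with the build Rnor_6.0. The filter, dispersion, covariates and annotation release are not given in the sources used here. Per the file headers, the authors deposited for each gene a log2 fold change, a log2 average CPM, a likelihood ratio score, a p-value and a Benjamini-Hochberg adjusted p-value of one edgeR comparison. Each deposited p-value matches the chi-square tail (1 degree of freedom) of its score. Back-calculated from the smallest adjusted p, the authors ran 14859 tests, while 14855 rows were analysed here. Depth per sample is unknown. The labels do not say that samples are separate rats, so the p-values reflect sample-to-sample spread, which may be technical.

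The implied standard error is the absolute log2 fold change over the square root of the score, and the 95% interval is a normal approximation, poor for genes with few reads. RSEM splits reads among similar transcripts by estimate, which adds uncertainty for close paralogs. Adjusted p under 0.05 was the threshold, over all genes. Named are all members, all measured family genes, Oprm1 and, per list, the 2 genes of smallest p where none passed. Others (Slc39a11, LOC100912228, Dpp4, Pomc, Slc17a7, Penk, Drd1, Adora2a, Nos1, Chodl, Tacr1 and genes named for abundance or absence) were chosen after values were seen. One gene within this rule is not reported here. The members and lists were chosen with earlier results of these data known. RefSeq tables are of GRCr8, not the authors' build, and gave sequences, names and neighbours only. Python 3.11.15, numpy 2.4.6, pandas 2.3.3 and scipy 1.17.1 were used. The arithmetic of the steps was tested on simulated normal fold changes with known errors. No read counts were simulated, so that test cannot judge the intervals of genes with few reads.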

Additional observations from a re-analysis of the deposited data

How the results depend on the processing

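The count of 0 members past the threshold was also 0 in the 7 alternatives: an adjusted p under 0.1 or 0.01, an unadjusted p under 0.05, the adjustment redone over all genes or over genes with log2 CPM of at least 0 or 4, and standard errors raised to the median of the 3.37% of genes nearest in abundance where smaller. With a smallest unadjusted p of 0.340 among the members by the authors' edgeR test, none of these alternatives could have given another count. Raising the errors affected Sstr2 and Sstr3, whose unadjusted p became 0.770 and 0.950. Centring on the median of genes with log2 CPM of at least 4, itself at −0.0053, changed the sign of 0 of the 7 log2 fold changes. That shift is smaller than the fold change nearest to no change, 0.03 for Npy5r, so no sign could have changed. The number of members with a positive value was 3, and 1 among the 3 members with log2 CPM of at least 4, by construction a smaller set. No paired analysis was possible because the comparison table carries no values per sample, and leaving out single samples could not be run for the same reason. The precision of the fit limits the members' folds. The change that would clear an unadjusted interval was between 1.87-fold for Sst and 8.51-fold for Npy5r.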

Other observations

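The palindrome found in the windows of Sst and Sstr2 lies in the promoter windows of 337 rows of the table. Of these, 170 had a positive and 167 a negative log2 fold change per the authors' deposited table, with a median of 0.00, beside −0.02 over all genes. By the authors' edgeR test 0 passed an adjusted p of 0.05, and 10 had an unadjusted p under 0.05 (2.97%, against 4.39% of all genes). The latter share varied with abundance, from 12.2% of genes below log2 CPM 2 to 1.02% between 2 and 4. Abundance was not matched here, so the 2 shares are not like for like. Sst at 0.18 and Sstr2 at 0.34 per the authors' deposited table both lie within 1 implied standard error of that median.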
